A study of Mus musculus with 4 samples.

Results

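Histone deacetylase transcripts were examined in MEL cells, a mouse erythroleukemia line that differentiates toward erythroid cells under dimethyl sulfoxide (DMSO). The 10 genes were chosen by name as zinc-dependent deacetylases, 10 of the 47935 loci in the deposited expression table, and each had 1 locus there. A row with several symbols counts as shared, which held for Hdac5, whose row also names the microRNA gene Mir8101. The cells came in 2 groups, DMSO-induced (MEL cells with 1.5% DMSO in the medium, replicates 1 and 2) and uninduced (the same line without DMSO, replicates 1 and 2). Both groups share the line and its basal medium with serum. The length of the DMSO exposure, and whether replicates were separate cultures, are not given in the sources used here, so each p-value reflects the spread among these 4 samples alone, and that spread may be technical. Total RNA was depleted of ribosomal RNA before sequencing. Levels are FPKM, fragment counts scaled to transcript length and to the mapped fragments of the library, so levels of different genes can be set side by side.

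Histone deacetylases remove acetyl groups from lysines of histones and other proteins, which mostly favours closed chromatin and repression. Class I enzymes (Hdac1, Hdac2, Hdac3, Hdac8) are mainly nuclear, and all but Hdac8 work inside corepressor complexes. Class IIa enzymes (Hdac4, Hdac5, Hdac7, and Hdac9, which was not among the chosen genes) shuttle between nucleus and cytoplasm and bind MEF2 factors. They have weak deacetylase activity of their own. Class IIb comprises Hdac6 and Hdac10, and class IV is Hdac11 alone. Inhibitors of the zinc-dependent enzymes, such as butyrate and trichostatin A, also induce MEL cells, and the drug vorinostat was developed from polar compounds that share this effect with DMSO. The comparison asked which transcripts of the chosen genes differed between the induced and the uninduced state.

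Summed FPKM ran between 1055861 and 1325806 per sample and 12151 to 12645 loci reached 1 FPKM; the sequencing depth of the libraries is unknown. The labelled cell type held against its markers. All 8 erythroid markers reached 1 FPKM in at least 1 sample, though Slc4a1 was at 0.49 and 0.56 FPKM in uninduced samples. The list summed to 58664 and 112270 FPKM in induced samples and to 1280 and 1678 FPKM in uninduced samples. Globin weighed most in these sums, with Hba-a1 alone at 40300.5 and 67689 FPKM in induced and 656 and 917 FPKM in uninduced samples. Of 5 macrophage markers only Cd68 reached 1 FPKM in any sample, and the list summed to 2.16 and 1.08 FPKM in induced and to 7.30 and 4.74 FPKM in uninduced samples. None of the 5 lymphocyte or the 5 fibroblast markers reached 1 FPKM, and Ms4a1, Dcn and Lum were listed at 0 throughout. Whether the small macrophage signal has a part in any result below was not tested.

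All 10 of the chosen deacetylase genes were expressed above the filter of 1 FPKM in at least 2 samples. Hdac9, outside these 10, was at 0.01 FPKM or less in every sample. The response to DMSO was uneven among the 10. Hdac6 rose, Hdac7 fell, and the other 8 did not pass 0.05 after Benjamini-Hochberg adjustment in a limma-trend model fitted over all 12890 loci that passed the filter. That made 1 member higher and 1 lower, where 11.5% of all tested loci were higher and 14.7% lower, so the share of members called, 20%, was near the background of 26.2%. Induced and uninduced values did not overlap for 5 of the 10 members (Hdac1, Hdac5, Hdac6, Hdac7 and Hdac10), against 70.8% of all tested loci. The median log2 fold change of the 10 was -0.01, beside 0.03 over all tested loci. In simulated data with 200 changed loci the same fit recovered only 9.7% of log2 changes of 1. In the real data 3377 loci passed, so that share need not hold for these members. A member that did not pass is not shown to be unchanged. Fold changes are induced over uninduced on the log2(FPKM + 1) scale with limma's SE; this scale understates changes of low genes. In a bulk sample a lower value cannot tell fewer expressing cells from less RNA per cell.

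**Figure D1:**
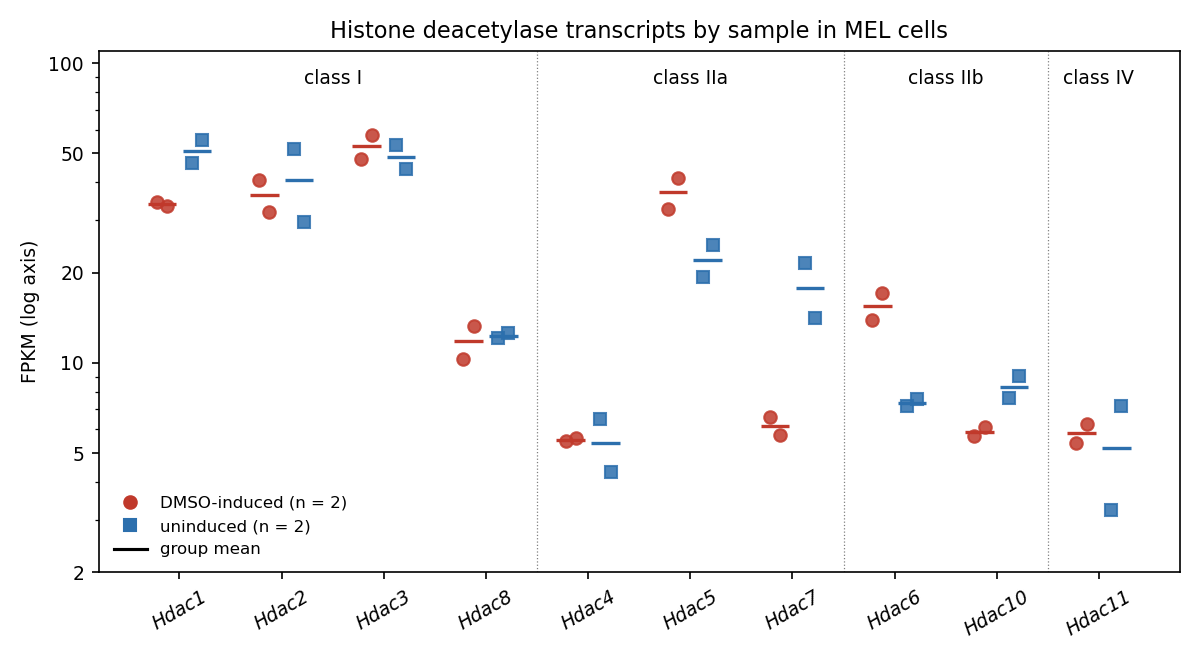
FPKM (log axis) of each deacetylase gene in the 2 DMSO-induced (circles) and 2 uninduced (squares) samples; horizontal bars are group means. Hdac6 lies higher in both induced samples and Hdac7 lower, while Hdac2, Hdac3, Hdac8, Hdac4 and Hdac11 have overlapping groups.

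Hdac6, a mainly cytoplasmic enzyme that deacetylates alpha-tubulin, HSP90 and cortactin and that is needed for enucleation of mouse fetal erythroblasts, was the member that rose. Its gene lies on chromosome X (7930120 to 7947889, minus strand; all positions are GRCm38, from GENCODE M21). Hdac6 measured 13.9 and 17.1 FPKM in induced samples, against 7.18 and 7.57 FPKM in uninduced samples. Both induced samples lay well above both uninduced ones, and the uninduced pair was close together. The group means were 15.5 ± 2.25 and 7.38 ± 0.28 FPKM (SD, n = 2 each), a ratio of 2.10. The log2 fold change was 0.97 ± 0.21 (limma adjusted p = 0.0317), with a 95% interval of 0.43 to 1.51. On the same 12890 loci the call was lost when any 1 sample was left out, with limma adjusted p = 0.108 without induced replicate 1, 0.198 without induced replicate 2, 0.0979 without uninduced replicate 1 and 0.104 without uninduced replicate 2. It was also lost when loci of low level were kept in the test (adjusted p = 0.185).

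Hdac7, a class IIa enzyme best known for repressing MEF2 targets in lymphoid and endothelial cells, was the member that fell. Its gene lies on chromosome 15 (97792664 to 97844502, minus strand). Hdac7 measured 6.59 and 5.74 FPKM in induced samples, against 21.5 and 14.1 FPKM in uninduced samples. The groups stood apart, and the uninduced samples differed more from each other than the induced ones did. The means were 6.17 ± 0.60 and 17.8 ± 5.23 FPKM (SD, n = 2 each), a ratio of 0.346. The log2 fold change was -1.37 ± 0.27 (limma adjusted p = 0.0257), with a 95% interval of -2.05 to -0.68. On the same loci it no longer passed without induced replicate 1 (adjusted p = 0.0997), induced replicate 2 (0.148), uninduced replicate 1 (0.0786) or uninduced replicate 2 (0.0831), nor when low loci were kept (0.247). The 3′ end of Hdac7 shares 29 bases (97792664 to 97792692) with Slc48a1, a heme transporter gene on the opposite strand. The deposited row of Hdac7 spans 97784355 to 97844512, so it reaches past the annotated 3′ end, toward Slc48a1. Slc48a1 measured 48.5 and 52.2 FPKM in induced and 98.4 and 97.8 FPKM in uninduced samples. It fell as well (log2 fold change -0.95 ± 0.18, limma adjusted p = 0.0239). Whether strand was used in counting is not stated, so reads from any stretch shared with Slc48a1 cannot be told apart. Their part in the Hdac7 value was not tested.

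The other class IIa genes among the chosen members were Hdac5 and Hdac4. Hdac5, which has been found in a complex with GATA1 and KLF1 in human erythroid cells, measured 32.7 and 41.5 FPKM in induced samples and 19.4 and 24.7 FPKM in uninduced samples. Both induced values lay above both uninduced ones, but the difference did not pass (log2 fold change 0.73 ± 0.23, 95% interval 0.13 to 1.32, limma adjusted p = 0.074). It passed under quantile scaling (0.85, adjusted p = 0.0498). Hdac5 lies on chromosome 11 (102194432 to 102230166, minus strand), and the hairpin of Mir8101 (102230040 to 102230150) overlaps an exon of it on the same strand; 20 of the 21 transcripts in the row are Hdac5 transcripts in GENCODE. Hdac4, a corepressor of muscle and bone genes in mice (chromosome 1, 91928779 to 92195699, minus strand), measured 5.47 and 5.60 FPKM in induced samples, inside the range of 6.48 and 4.34 FPKM in uninduced samples. Its log2 fold change was 0.05 ± 0.25 (95% interval -0.59 to 0.69, adjusted p = 0.898), with a sign that turned under median-of-ratios scaling (-0.02). The ratio of Hdac5 to Hdac7 did not overlap between the groups. That follows from the levels of the 2 genes, which separate in opposite directions, and was not tested. The Hdac5 level was 4.97 and 7.22 times that of Hdac7 in the induced samples, and 0.901 and 1.75 times in the uninduced samples.

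**Figure D2:**
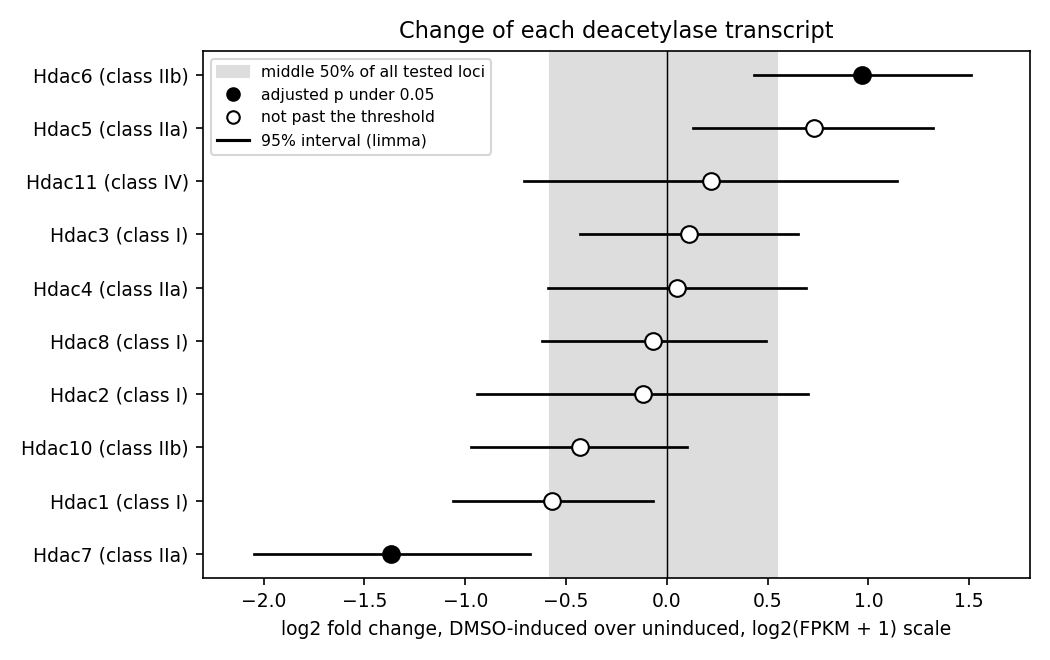
Log2 fold change of each deacetylase gene, DMSO-induced over uninduced, with its 95% interval; filled points have an adjusted p under 0.05 and the grey band holds the middle 50% of all tested loci (-0.58 to 0.55). Only Hdac6 (0.97) and Hdac7 (-1.37) are filled among the 10 genes, and the intervals of Hdac5 and Hdac1 exclude 0 before adjustment.

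For each member that passed, and for Hdac5, 1 annotated start region is printed. Each window runs 5′ to 3′ from 250 bases before to 50 bases after an annotated start (RefSeq, build GRCm38.p6). Capitals mark letters of 5 short motifs searched on both strands: the GC box GGGCGG, the CCAAT box, the GATA letters AGATAA or TGATAA, the CACCC box and the E-box CACGTG.
Hdac6 promoter, chrX:7947840-7948139, minus strand: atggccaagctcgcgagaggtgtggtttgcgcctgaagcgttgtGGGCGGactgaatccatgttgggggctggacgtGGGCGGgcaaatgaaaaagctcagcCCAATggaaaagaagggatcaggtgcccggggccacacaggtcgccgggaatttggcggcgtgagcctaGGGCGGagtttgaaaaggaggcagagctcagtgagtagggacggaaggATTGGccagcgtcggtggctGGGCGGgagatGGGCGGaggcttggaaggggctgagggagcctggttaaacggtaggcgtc
Hdac7 promoter, chr15:97844453-97844752, minus strand: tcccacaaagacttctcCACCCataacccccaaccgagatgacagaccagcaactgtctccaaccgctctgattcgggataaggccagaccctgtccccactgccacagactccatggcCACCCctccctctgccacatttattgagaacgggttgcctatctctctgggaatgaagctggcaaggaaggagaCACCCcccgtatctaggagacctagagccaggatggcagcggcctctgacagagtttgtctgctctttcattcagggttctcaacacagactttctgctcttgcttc
Hdac5 promoter, chr11:102230123-102230422, minus strand: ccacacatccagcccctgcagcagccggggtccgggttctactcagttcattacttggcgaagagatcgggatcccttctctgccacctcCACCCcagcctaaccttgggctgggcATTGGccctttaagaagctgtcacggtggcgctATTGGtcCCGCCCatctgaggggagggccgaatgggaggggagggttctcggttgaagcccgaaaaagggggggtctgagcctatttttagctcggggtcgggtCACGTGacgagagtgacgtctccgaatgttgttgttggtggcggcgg
The Hdac6 window held 5 GC boxes and 2 CCAAT boxes. The Hdac5 window held 1 GC box, 2 CCAAT boxes, 1 CACCC box and 1 E-box. Hdac7 has 4 windows in the table, of which the outermost is printed. The printed window held 3 CACCC boxes and none of the other letters. Another Hdac7 window (97831446 to 97831745) held 1 GC box, 1 match of the GATA letters and 1 CACCC box. The deposited rows pool 7 start sites for Hdac6, 9 for Hdac7 and 10 for Hdac5. They hold no value per start site, so which start was used cannot be read for any of these genes. Windows were found for 7 of the 10 members, 10 windows in all, and 6 of the 10 windows held a GC box, 5 a CCAAT box, 7 a CACCC box, 1 the GATA letters and 1 the E-box. Counted by gene, since all 4 Hdac7 windows held a CACCC box, 6 of the 7 genes had a GC box, 5 a CCAAT box and 4 a CACCC box. Among all 32851 windows of the same length, 35.7% held a GC box, 37.4% a CCAAT box, 57.5% a CACCC box, 18.6% the GATA letters and 7.15% the E-box. These shares are per window, so the counts by gene have no background beside them. A match is a run of letters, not a bound site.

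Class I transcripts together held the largest share of the family's summed level, and none of the 4 passed the test. Hdac1, a catalytic subunit of the Sin3, NuRD, CoREST and MiDAC complexes, measured 34.5 and 33.5 FPKM in induced samples and 46.6 and 55.3 FPKM in uninduced samples. The groups did not overlap, with a log2 fold change of -0.57 ± 0.19 (95% interval -1.06 to -0.07, limma adjusted p = 0.0858). Hdac1 lies on chromosome 4 (129516104 to 129542713, minus strand), and its processed copy Gm10093 on chromosome 17 measured 3.48 and 4.06 FPKM in induced and 4.22 FPKM in each uninduced sample. Reads shared by the 2 copies may have been split between them; the copy amounted to between 7.63% and 12.1% of the Hdac1 level.

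Hdac2, the close paralog of Hdac1 in the same complexes, with a described role in chromatin condensation of mouse fetal erythroblasts (chromosome 10, 36974544 to 37001889, plus strand), measured 40.6 and 31.8 FPKM in induced samples and 51.7 and 29.6 FPKM in uninduced samples. The induced values lay between the uninduced ones. The log2 fold change of -0.12 ± 0.32 had a 95% interval of -0.94 to 0.70 (adjusted p = 0.796) and turned sign under quantile scaling (0.05). Replicate 1 exceeded replicate 2 by 0.79 on the log2 scale in uninduced samples, where the median absolute difference over all tested loci was 0.29. The Hdac1 level was 0.848 and 1.05 times that of Hdac2 in induced samples, and 0.900 and 1.87 times in uninduced samples, so the groups overlapped.

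Hdac3, the catalytic subunit of the NCoR and SMRT complexes (chromosome 18, 37935844 to 37955016, minus strand), measured 47.8 and 57.8 FPKM in induced samples and 53.1 and 44.3 FPKM in uninduced samples. The groups overlapped (log2 fold change 0.11 ± 0.21, 95% interval -0.43 to 0.65, limma adjusted p = 0.706). Hdac8, which deacetylates the cohesin subunit SMC3 (chromosome X, 102284639 to 102505359, minus strand), measured 10.3 and 13.3 FPKM in induced samples and 12.1 and 12.6 FPKM in uninduced samples. Here, too, the groups overlapped (-0.07 ± 0.22, 95% interval -0.62 to 0.49, adjusted p = 0.827; 0.02 when libraries were scaled to sums that leave out globins and the top 10 loci). For both genes the intervals still allow changes of up to about the size seen for Hdac1, so the data do not show that these levels were alike.

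Hdac10, a polyamine deacetylase of class IIb, and Hdac11, a class IV enzyme that removes fatty acyl groups from SHMT2, were low and did not pass. Hdac10 (chromosome 15, 89123307 to 89128700, minus strand) measured 5.70 and 6.10 FPKM in induced samples and 7.64 and 9.02 FPKM in uninduced samples. The groups did not overlap, with a log2 fold change of -0.43 ± 0.21 (95% interval -0.97 to 0.10, limma adjusted p = 0.177). The Hdac6 level was 2.44 and 2.80 times that of Hdac10 in induced samples and 0.940 and 0.839 times in uninduced samples. These ratios do not overlap, which likewise follows from the levels of both genes and was not tested. Hdac11 (chromosome 6, 91156665 to 91174692, plus strand) measured 5.40 and 6.26 FPKM in induced samples, between the 3.22 and 7.17 FPKM of the uninduced samples. Its log2 fold change of 0.22 ± 0.36 had the widest 95% interval of the 10 members (-0.71 to 1.14, adjusted p = 0.678). Antisense transcripts overlap exons of Hdac11 (Gm14573 and Gm44002) and of Hdac4 (Gm26720), and their reads cannot be told apart without strand; Gm26720 was at 0.42 and 0.72 FPKM in induced and 0.33 and 0.40 FPKM in uninduced samples.

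The order of levels within the family differed between the groups. In induced samples Hdac3 led at 52.8 ± 7.05 FPKM, followed by Hdac5 (37.1 ± 6.17), Hdac2 (36.2 ± 6.22) and Hdac1 (34.0 ± 0.68), a trio whose neighbours overlapped. Hdac6 at 15.5 and Hdac8 at 11.8 FPKM came next, each apart from its neighbours. Hdac7, Hdac10, Hdac11 and Hdac4 closed the order between 6.17 and 5.54 FPKM on average and overlapped from neighbour to neighbour. In uninduced samples Hdac1 (50.9 ± 6.17), Hdac3 (48.7 ± 6.23) and Hdac2 (40.7 ± 15.6) overlapped at the top. Hdac5 and Hdac7 overlapped below them, Hdac8 and Hdac10 followed apart from each other, and Hdac6 stood ahead of Hdac4 and Hdac11. The ranks of Hdac6 (the fifth in induced, the eighth in uninduced samples) and of Hdac7 (the seventh in induced, the fifth in uninduced samples) follow from the values above and were not tested separately.

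The summed level of the 10 genes was 203 and 219 FPKM in induced samples and 229 and 209 FPKM in uninduced samples, so the groups overlapped. Within that sum, class I genes made up 65.6% and 62.4% in induced samples and 71.4% and 67.9% in uninduced samples. The mean shares were 64.0% ± 2.28 and 69.7% ± 2.47 (SD, n = 2 each). They differed by -5.67 percentage points, and the groups did not overlap. With 2 samples per group this does not set the shift apart, since 70.8% of all tested loci did not overlap in FPKM either. Class IIa genes took 22.1% and 24.1% in induced samples and 20.7% in each uninduced sample. Inside class IIa, Hdac5 alone took 16.1% and 19.0% in induced samples and 8.47% and 11.8% in uninduced samples, while Hdac7 took 3.25% and 2.63% in induced and 9.40% and 6.77% in uninduced samples. Class IIb genes took 9.65% and 10.6% in induced samples and 6.47% and 7.95% in uninduced samples. These shares restate the gene levels and carry no test.

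**Figure D3:**
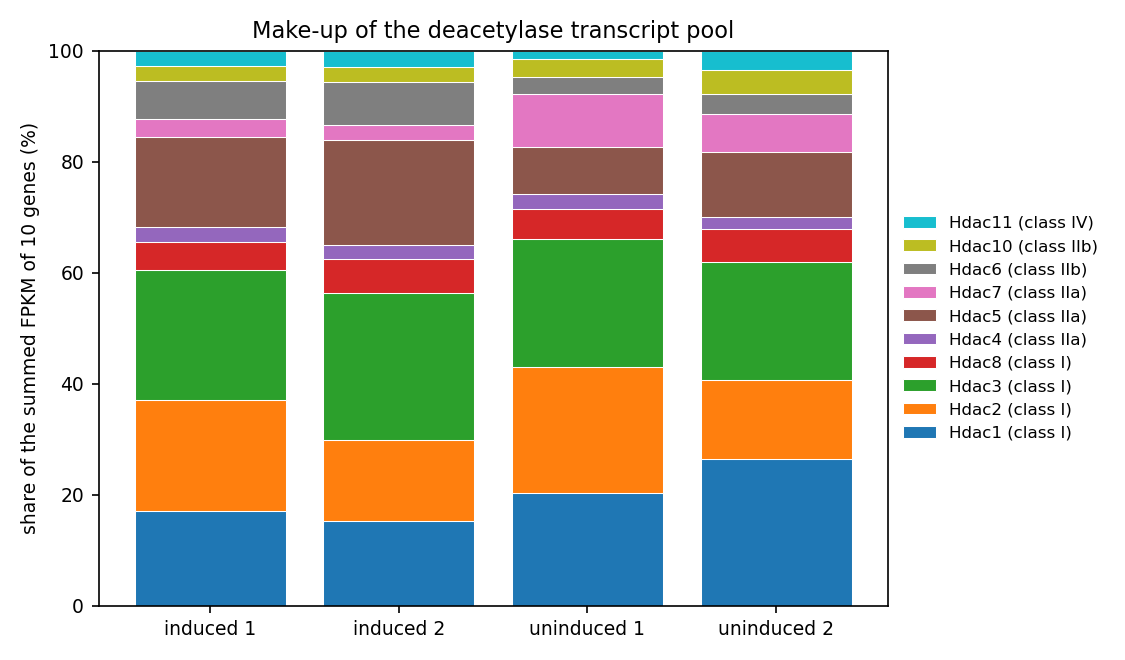
Share of the summed FPKM of the 10 deacetylase genes taken by each gene, in 2 DMSO-induced and 2 uninduced samples; each bar adds to the whole sum. The Hdac6 segment is 6.84% and 7.81% in induced samples and 3.14% and 3.63% in uninduced samples, and the 4 class I segments at the bottom reach 65.6% and 62.4% in induced and 71.4% and 67.9% in uninduced samples.

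Genes of the complexes, partners and substrates of these enzymes were read from 12 lists with 117 genes, of which 95 were tested. Of these, 8 rose, 14 fell and 73 did not pass, so 23.2% were called, beside 26.2% of all tested loci, and the median log2 fold change was 0.09. A further 9 genes were below the filter and 13 were left out, since their locus was shared with another gene or split over several rows, or were not analysed here. Without any 1 sample, between 0 and 3 of the 95 genes passed on the same loci (3 without induced replicate 1, 0 without each of the others), and 0 when low loci were kept. Counts and percentages of single lists below rest on few genes and can be read only against that background. By direction, 11.5% of all tested loci rose and 14.7% fell.

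The NuRD complex, which joins Hdac1 and Hdac2 to a chromatin remodeller, had 4 of 11 tested genes that fell and none that rose (median -0.42). Of all tested loci 14.7% fell. The other 7 NuRD genes did not pass. Among them was the remodeller Chd4, whose row also names Mir7045 (log2 fold change -0.01 ± 0.22, limma adjusted p = 0.973). Mbd3, the methyl-CpG-binding-domain subunit, measured 26.2 and 21.1 FPKM in induced samples and 73.8 and 78.4 FPKM in uninduced samples (log2 fold change -1.65 ± 0.20, limma adjusted p = 0.013). Chd3, another remodeller, whose row also names the small RNA gene Gm22442, measured 8.29 and 9.72 FPKM in induced and 25.3 and 31.7 FPKM in uninduced samples (-1.55 ± 0.22, adjusted p = 0.0154). For both genes all induced values lay far below the uninduced ones. Cdk2ap1 (-0.99 ± 0.23) and the scaffold Gatad2a (-0.77 ± 0.20) fell as well, at adjusted p = 0.0367 and 0.0485. Both calls ended under quantile scaling (Cdk2ap1 -0.77, adjusted p = 0.0529; Gatad2a -0.64, adjusted p = 0.0617) and under sums that leave out the top loci (0.0713 for Cdk2ap1 and 0.104 for Gatad2a), and that of Gatad2a also with a pseudocount of 0.1 (0.0516). Rbbp7, the histone-binding subunit and the most abundant of the list, averaged 138 ± 28.1 FPKM in induced and 227 ± 73.1 FPKM in uninduced samples and did not pass (adjusted p = 0.15).

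In the Sin3 complex, another home of Hdac1 and Hdac2, 1 of 13 tested genes fell and none rose (median 0.31). The gene that fell was Fam60a, a cell-cycle-linked subunit also called SINHCAF, at 8.52 and 5.95 FPKM in induced samples and 25.7 and 25.1 FPKM in uninduced samples (-1.70 ± 0.23, limma adjusted p = 0.0152). Sin3b went the other way without passing (0.84 ± 0.23, adjusted p = 0.0517). It measured 124 and 154 FPKM in induced and 68.7 and 86.2 FPKM in uninduced samples. In this list 2 genes passed under quantile scaling, under sums that leave out the top loci, with a filter at 5 FPKM, with loci listed at 0 left out and with robust variance estimation. Fam60a was 1 of them each time, and the name and direction of the other are not given here. Sap18, the most abundant, averaged 127 ± 8.21 and 177 ± 20.3 FPKM in induced and uninduced samples (adjusted p = 0.138). In the CoREST complex, which pairs Hdac1 and Hdac2 with the demethylase Kdm1a, 2 of 7 rose and none fell (median 0.52). Phf21a, the subunit that reads unmodified histone H3, measured 23.8 and 46.1 FPKM in induced and 6.47 and 9.84 FPKM in uninduced samples (1.93 ± 0.38, adjusted p = 0.0264). Kdm1a itself averaged 40.5 ± 6.14 and 36.4 ± 6.08 FPKM in induced and uninduced samples, a difference within the spread (adjusted p = 0.631). Of the 2 tested genes of the MiDAC complex none passed in limma and none had an unadjusted p under 0.05, with Dnttip1 at 20.2 ± 1.99 FPKM in induced and 20.6 ± 5.85 FPKM in uninduced samples.

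In the Hdac3 complex, 1 of 5 tested genes rose and none fell (median -0.00). Ncor1, the NCoR scaffold that activates Hdac3, measured 35.3 and 35.1 FPKM in induced samples and 21.4 and 15.5 FPKM in uninduced samples (log2 fold change 0.91 ± 0.23, limma adjusted p = 0.0424). Both induced values lay above both uninduced ones, though the call ended under sums that leave out the top loci (adjusted p = 0.0534). Among 18 tested partners and regulators of class IIa enzymes, 3 fell (16.7%, beside 14.7% of all tested loci) and none rose (median -0.09). They were the 14-3-3 genes Ywhag (35.0 and 31.7 FPKM in induced, 84.9 and 86.0 FPKM in uninduced samples; -1.33 ± 0.18, adjusted p = 0.0148) and Ywhaz (-1.06 ± 0.22, adjusted p = 0.0302), whose proteins hold phosphorylated class IIa enzymes in the cytoplasm, and Sik3 (-1.12 ± 0.26, adjusted p = 0.036), a kinase that phosphorylates them. Ywhaz did not pass under quantile scaling (adjusted p = 0.0544), and neither Ywhaz (0.0561) nor Sik3 (0.0573) passed under sums that leave out the top loci.

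**Figure D4:**
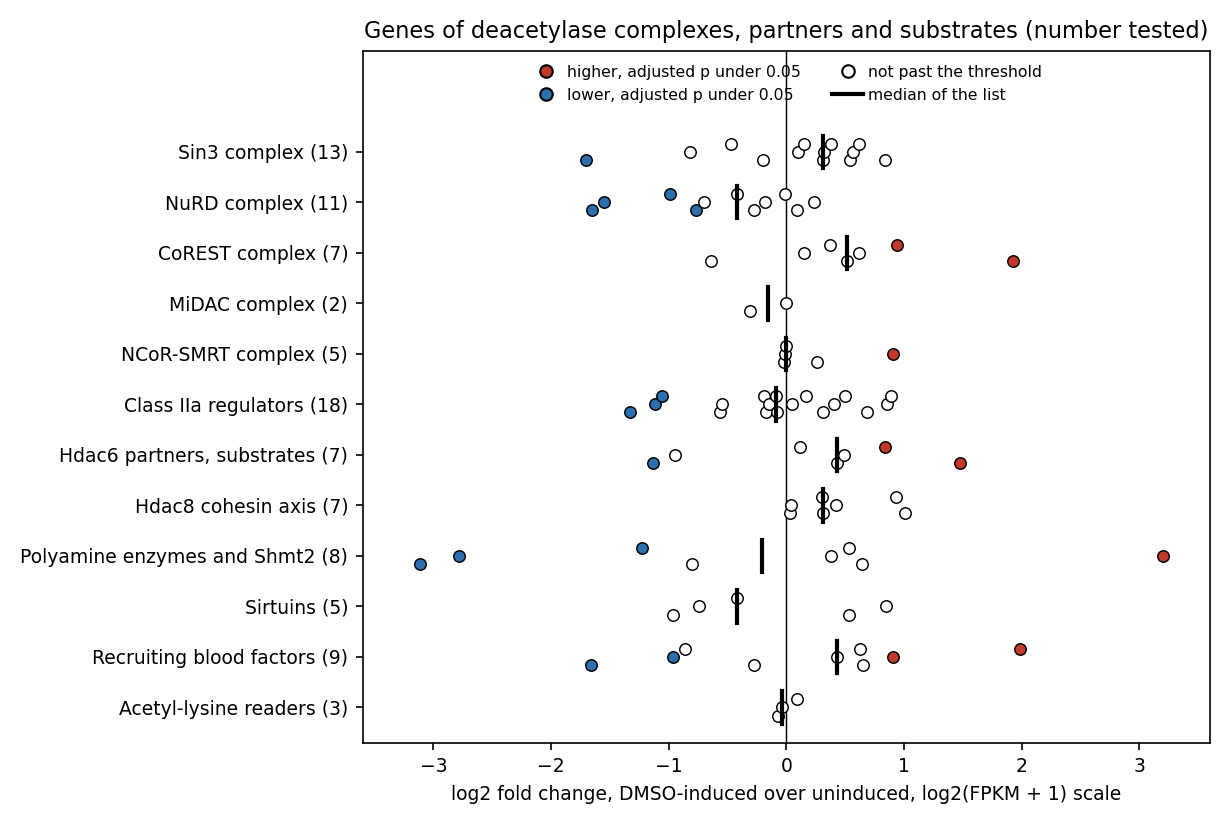
Log2 fold change, DMSO-induced over uninduced, of the 95 tested genes of deacetylase complexes, partners and substrates; each point is a gene, red and blue points have an adjusted p under 0.05 and bars are list medians. In the NuRD list 4 of 11 points are blue and in the CoREST list 2 of 7 are red, while no point is filled in the MiDAC, cohesin, sirtuin and acetyl-lysine reader lists.

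Around Hdac6, 2 of 7 tested partners and substrates rose and 1 fell (median 0.43). Tuba4a, an alpha-tubulin isotype, measured 376 and 617 FPKM in induced and 221 and 133 FPKM in uninduced samples (1.48 ± 0.38, limma adjusted p = 0.0446), and cortactin (Cttn) 38.8 and 49.99 FPKM in induced and 24.6 and 23.7 FPKM in uninduced samples (0.84 ± 0.21, adjusted p = 0.043). Hsp90ab1, a constitutive HSP90 chaperone, measured 319 and 283 FPKM in induced and 742 and 584 FPKM in uninduced samples (-1.13 ± 0.24, adjusted p = 0.0302). So the called transcripts of known Hdac6 substrates went both ways. The alpha-tubulin genes Tuba1a and Tuba1b share a row and were left out. Tuba4a did not pass with a pseudocount of 0.1 (adjusted p = 0.0508), nor Hsp90ab1 under sums that leave out the top loci (0.0507). Beside Hdac8, none of 7 genes of SMC3, its acetyltransferases and cohesin passed in limma (median 0.31), and 1 had an unadjusted p under 0.05; Smc1a averaged 53.7 ± 17.7 and 52.0 ± 12.8 FPKM in induced and uninduced samples.

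Among the polyamine enzymes set beside Hdac10, with the Hdac11 substrate gene Shmt2, 3 of 8 fell and 1 rose (median -0.21). Srm, spermidine synthase, measured 32.2 and 15.9 FPKM in induced and 215 and 194 FPKM in uninduced samples (-3.11 ± 0.36, limma adjusted p = 0.0128), and Sms, spermine synthase, changed by -1.23 ± 0.20 (adjusted p = 0.0191). Smox, which oxidises spermine, measured 68.8 and 140 FPKM in induced and 8.46 and 11.4 FPKM in uninduced samples (3.20 ± 0.38, adjusted p = 0.013). Shmt2, the mitochondrial serine hydroxymethyltransferase, measured 33.8 and 19.7 FPKM in induced and 166 and 203 FPKM in uninduced samples (-2.78 ± 0.31, adjusted p = 0.0128). These folds exceeded those of Hdac10 and Hdac11 themselves, whose transcripts did not pass. Oaz1, the ornithine decarboxylase antizyme and the most abundant of the list, averaged 909 ± 25.8 FPKM in induced and 630 ± 34.6 FPKM in uninduced samples (adjusted p = 0.14).

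Of 9 tested transcription factors that recruit deacetylase complexes in blood cells, 2 rose and 2 fell (median 0.43). Tal1 (log2 fold change 1.99 ± 0.24) and Runx1 (0.91 ± 0.22) rose at limma adjusted p = 0.013 and 0.0402. Bcl11a (-1.66 ± 0.22) and Ikzf1 (-0.96 ± 0.22), both of which bind NuRD, fell at adjusted p = 0.0144 and 0.0352, the second of which ended under sums that leave out the top loci (0.0716). Gfi1b, which brings CoREST to its targets, measured 106 and 123 FPKM in induced and 74.0 and 73.3 FPKM in uninduced samples and did not pass (0.63 ± 0.19, adjusted p = 0.0674), but passed under quantile scaling (0.91, adjusted p = 0.0256). None of the 5 tested sirtuins, the NAD-dependent deacetylases, passed in limma, and 2 had an unadjusted p under 0.05. These 2 went opposite ways, Sirt1 at 0.53 ± 0.19 and Sirt3 at -0.96 ± 0.26. In 4 alternatives 1 sirtuin other than Sirt2 passed (median-of-ratios scaling, a filter at 5 FPKM, loci listed at 0 left out, robust variance estimation). The most abundant, Sirt2, averaged 36.1 ± 15.3 and 18.8 ± 4.06 FPKM in induced and uninduced samples (adjusted p = 0.129). None of the 3 acetyl-lysine readers of the BET family passed or had an unadjusted p under 0.05, with Brd2 at 40.0 ± 2.13 FPKM in induced and 41.1 ± 2.88 FPKM in uninduced samples.

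**Figure D5:**
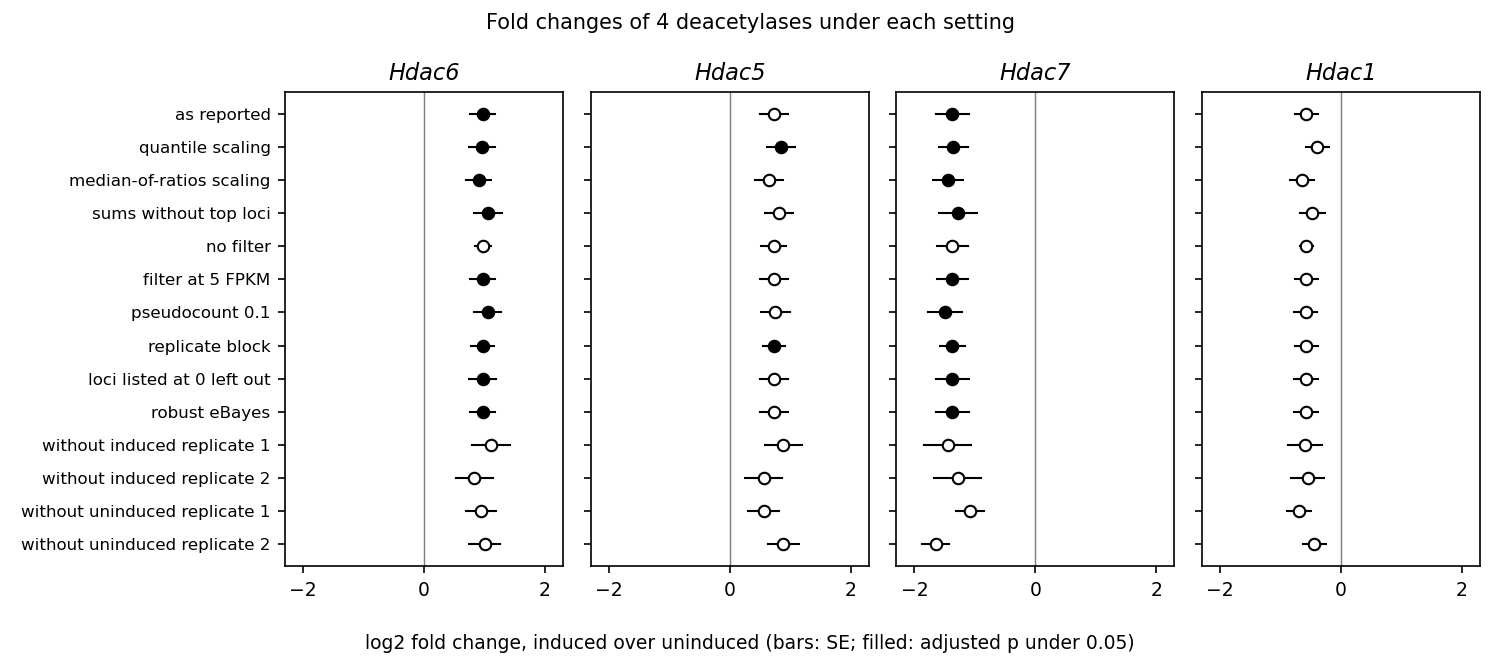
Log2 fold change (points) with its SE (bars) of Hdac6, Hdac5, Hdac7 and Hdac1, DMSO-induced over uninduced, under the reported fit and 13 alternatives; filled points have an adjusted p under 0.05. Hdac6 stays between 0.83 and 1.11 and Hdac7 between -1.65 and -1.08, each called in 8 of 13 alternatives, and Hdac1 is called in none.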

How the data were processed

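The submitters' processing notes name TopHat2 and GRCm38; no version, quantifier, annotation or strandedness is given in the sources used here. In the deposited table each sample has 1 FPKM column, scaled by the authors, an inference from the Cufflinks-type columns per the file headers and from values that are not whole. Since FPKM are not counts, log2(FPKM + 1) was fitted with limma 3.58.1 in R 4.3.3 (trend, group as the only term) over 12890 loci (1 FPKM or more in 2 or more samples), with Benjamini-Hochberg adjustment over all of them. Members and lists were chosen with earlier results of these data known. Named genes are the members and, per list, up to 4 called genes by size of change and the most abundant. Chd4, Sin3b, Sirt1 and Sirt3 were named outside this rule, with their values known. The values of 1 called list gene are not reported here. A list gene kept its row where the only other symbols were small RNA genes (chosen with the table in view). The fit was tested on simulated data with 200 changed loci. It recovered 9.7% of log2 changes of 1, 91.3% of changes of 2 and 99.3% of changes of 4. Of its calls 8.96% were false, above the share that the adjusted p threshold aims at. In the real data 3377 loci passed, so these shares need not hold there. Alternatives covered scaling, filter, pseudocount, loci at 0, robust variance, the replicate number and each sample left out.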

Additional observations from a re-analysis of the deposited data

How the results depend on the processing

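Hdac6 and Hdac7 kept their direction in the 13 alternatives that the settings plot shows and passed in 8. When low loci were kept no member, none of the 95 list genes and 220 of 47935 loci passed (0, 0 and 220 calls, against 2, 22 and 3377); when 1 sample was left out, also with the filter applied anew to the 3 samples left (chosen after seeing the data), calls ran from 0 to 1 among members, 0 to 19 among list genes and 14 to 2685 among loci. On the same loci 486, 67, 30 and 14 loci passed without induced replicates 1 and 2 and uninduced replicates 1 and 2; with the filter applied anew the numbers were 860, 187, 2685 and 2231, and 7, 3, 19 and 18 for list genes. With the filter applied anew, Hdac7 passed without uninduced replicate 1 (limma adjusted p = 0.0386) and without uninduced replicate 2 (0.0155), and Hdac6 did not (0.057 and 0.0516). In fits with 3 samples the lone sample is assumed to vary like the others. Quantile scaling gave 0.05 for Hdac2 and 0.13 for Brd2; sums that leave out globins and the top 10 loci gave 0.02 for Hdac8 and 0.06 for Brd2; median-of-ratios scaling gave -0.02 for Hdac4, -0.07 for Dnttip1 and -0.05 for Smc1a, all of opposite sign to the reported value and uncalled. With 1 sample left out, signs also turned within -0.51 to 0.27 for Hdac2, -0.02 to 0.25 for Hdac3, -0.24 to 0.10 for Hdac8, -0.19 to 0.29 for Hdac4, -0.26 to 0.69 for Hdac11, -0.01 to 0.32 for Kdm1a, -0.28 to 0.28 for Dnttip1 (-0.09 without induced replicate 2, filter anew), -0.31 to 0.36 for Smc1a (-0.22 without uninduced replicate 2, filter anew) and -0.11 to 0.03 for Brd2. The causes were not tested. The replicate numbers pair no samples by the labels; same-numbered samples deviated together with a correlation of 0.17 over 12890 loci, and a replicate block gave 3 members (Hdac5 added, adjusted p = 0.0437), 28 list genes and 4238 loci, while Gatad2a (0.0516) and Tuba4a (0.0528) did not pass under it; it also gave 3 Sin3, 2 sirtuin (Sirt2 among them, 0.0433) and 1 cohesin gene, against 1, 0 and 0. The class I share differed by -3.8 points under quantile scaling. Depth is unknown, so no counting error can be given.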

Other observations

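The remaining class IIa gene, Hdac9, which was not among the 10, was listed at 0.00 and 0.01 FPKM in induced samples and at 0.00 FPKM in both uninduced samples. Atat1, the alpha-tubulin acetyltransferase that opposes Hdac6, had 2 rows with the same deposited span. The row with 16 transcripts measured 5.51 and 6.61 FPKM in induced and 3.26 and 3.08 FPKM in uninduced samples (limma adjusted p = 0.0562). The row with 1 transcript measured 1.61 and 2.58 FPKM in induced and 16.3 and 13.9 FPKM in uninduced samples (adjusted p = 0.0124). The rows moved in opposite directions, and which of them holds the reads of the enzyme's mRNA cannot be told from the table; both were named after their values were seen.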
